A study of Mus musculus with 6 samples.

Results

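The genes described here are the mouse hepcidin genes and the core genes of iron handling: 10 of the 23282 gene rows in the count files. They are Hamp2 and Hamp (hepcidin), Fth1 and Ftl1 (ferritin), Tfrc (transferrin receptor), Trf (transferrin), Slc40a1 (ferroportin), Slc11a2 (the iron importer DMT1), and Aco1 and Ireb2 (iron regulatory proteins). The members were chosen by gene symbol, and the set was picked because Hamp2 was among the largest falls in the comparison used below. The levels of Hamp2 are therefore given as a description with no test.

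Hepcidin is a small disulfide-rich peptide, made mainly by the liver, that binds ferroportin, the only known cellular iron exporter, and causes its breakdown. Inside cells, iron taken up through the transferrin receptor and DMT1 is stored in ferritin, and the iron regulatory proteins bind stem-loops called iron-responsive elements in messenger RNAs, which blocks ferritin and ferroportin translation and stabilises transferrin receptor mRNA when iron is low. The exocrine pancreas is a tissue that gathers iron in iron overload, and mice, unlike humans, carry a pair of hepcidin genes. Whether the peptide of Hamp2 acts on ferroportin was not examined here, so a level of Hamp2 is not read as a level of ferroportin control.

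The study compared primary acinar cells, the enzyme-secreting cells of the pancreas, from C57BL/6J mice. The control group has 3 libraries of genotype wild type, and the cKO group has 3 of genotype ERRgamma -/-, a conditional knock-out of the orphan nuclear receptor ERRγ (gene Esrrg). Cells of both groups were cultured in Waymouth's medium with serum, antibiotics, trypsin inhibitor and epidermal growth factor, and the libraries were made with QuantSeq, which yields a tag near the 3′ end of each polyadenylated transcript. The sources used here do not give the driver of the deletion, the exons removed, the age of the mice, the time in culture, or whether each library came from its own animal. The p-values therefore speak only of the variation among these 6 libraries, part or all of which could be technical.

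Library totals were 23009041 to 25183465 counts in controls and 15170173 to 16963782 in cKO. Esrrg had 0 counts in each control and 0, 9 and 1 in cKO replicates 1, 2 and 3, so its 3′ counts do not check the labels. On the first principal component, which held 69.0% of the variance, cKO replicate 2 (56.4) lay nearer the controls (-84.1 to -78.0) than cKO replicates 1 and 3 (99.1 and 86.4). All 8 acinar markers were called lower in cKO on the TMM scale described next; on library totals Cpa1, Cel, Pnlip and Prss2 were, and the share of Ptf1a was 1.75-fold higher in cKO. The sum of the 8 was 169745 to 184489 per 1e6 counts of the library total in controls and 49362 to 146251 in cKO. With such a difference in the make-up of the libraries, the direction of many genes depended on the scale. The main scale is CPM, counts per 1e6 of the TMM-scaled library size, which places the typical gene near no change (median log2 fold change 0.10 over 13132 tested genes), while on library totals the same median was 3.37. Effective sizes under TMM were 7522020 to 8487840 in controls and 33153800 to 59957500 in cKO, and a CPM below is a level on that scale unless another is named.

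Hamp2 and Hamp lie beside each other on mouse chromosome 7 (GRCm38, GENCODE M21), both on the minus strand. Hamp2 spans chr7:30922372-30924681 and Hamp spans chr7:30942368-30944032, with 17686 bp and 0 protein-coding genes between them. Their transcripts were 92.4% identical (388 of 420 aligned columns), with a longest identical stretch of 87 bases, and their 3′ UTRs were 87.4% identical. The differences gather at the end of the coding sequence, which encodes the secreted peptide: of 16 coding bases that differ, 14 lie in the last 25 codons and the stop. That stretch is shown for both genes because it is where the peptides part. Capitals mark the bases that differ, and each gene has 8 cysteine codons (TGC or TGT) there.
Hamp: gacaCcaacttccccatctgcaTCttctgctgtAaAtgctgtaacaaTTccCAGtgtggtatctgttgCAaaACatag
Hamp2: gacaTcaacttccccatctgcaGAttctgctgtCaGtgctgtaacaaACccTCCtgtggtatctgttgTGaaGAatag

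The 250 bases before each gene's start (RefSeq, GRCm38.p6) were 89.7% identical (227 of 253 aligned columns) and are shown because both genes were lower in cKO. RefSeq promoter windows were matched for 7 of the 10 members. The motifs searched on both strands were the letters AGGTCA of the site bound by ERR receptors, the core of the BMP-responsive element GGCGCC, through which BMP and SMAD signals act on Hamp, and the STAT site TTCNNNGAA, through which interleukin-6 acts. Capitals mark matches. The windows are chr7:30924182-30924431 for Hamp2 and chr7:30944030-30944279 for Hamp, each printed on the minus strand. The Hamp2 window lies inside the Hamp2 span given above, because GENCODE holds a longer Hamp2 transcript that starts further upstream than the RefSeq start.
Hamp2: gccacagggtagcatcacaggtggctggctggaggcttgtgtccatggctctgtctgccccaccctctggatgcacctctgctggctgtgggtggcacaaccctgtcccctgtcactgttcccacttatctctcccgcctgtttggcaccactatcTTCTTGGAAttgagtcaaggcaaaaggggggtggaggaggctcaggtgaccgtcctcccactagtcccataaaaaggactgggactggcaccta
Hamp: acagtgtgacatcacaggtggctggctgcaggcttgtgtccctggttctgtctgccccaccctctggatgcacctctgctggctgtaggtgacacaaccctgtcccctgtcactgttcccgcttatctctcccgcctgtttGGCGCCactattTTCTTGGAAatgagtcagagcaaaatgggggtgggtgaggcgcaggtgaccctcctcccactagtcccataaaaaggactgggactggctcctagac

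Both hepcidin windows held the STAT letters, with the first base at -94 in Hamp2 and -97 in Hamp, and 7.02% of 32851 promoter windows of that length held them. GGCGCC was present in Hamp (-109) and not in Hamp2, against 9.59% of all windows. AGGTCA was in neither window, against 14.0% of all windows, and in none of the windows of the 7 matched members. These letters describe the sequence and are not evidence of a bound site.

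Hamp2 was at 406, 403 and 345 CPM in control replicates 1, 2 and 3 and at 3.77, 11.3 and 2.22 CPM in cKO replicates 1, 2 and 3. The groups did not overlap, and cKO replicate 2 held the most Hamp2 of the cKO libraries. Behind these levels were 3057, 3424 and 2714 counts in controls and 224, 375 and 133 in cKO, so the low levels rest on over 100 counts in each library. The mean was 385 ± 34.8 CPM (SD, n = 3) in controls and 5.77 ± 4.86 CPM (SD, n = 3) in cKO, a log2 fold change of -6.08 ± 0.72 (SE), the 4th lowest of the 13132 tested genes.

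The direction of Hamp2 was the same on library totals. Per 1e6 counts of the library total, Hamp2 took 125 (95% exact binomial interval 121 to 130), 136 (131 to 141) and 118 (114 to 122) in controls. It took 14.8 (12.9 to 16.8), 22.1 (19.9 to 24.5) and 8.13 (6.81 to 9.63) in cKO, a mean share 8.42-fold lower, where the intervals cover counting error only. Per 1e6 counts of the 8 acinar markers, Hamp2 stood at 678, 801 and 657 in controls and 299, 151 and 111 in cKO, a mean 3.81-fold lower. On this scale cKO replicate 1 was the highest cKO library, where on the TMM scale and on library totals it was cKO replicate 2. Hamp2 was thus lower in cKO on all 3 scales, by a factor that ran from 67.8 on TMM to 3.81 per acinar marker count. The last factor depends on the markers that dominate the sum. Their share of library totals in cKO over control ran from 0.291 for Prss2 to 1.75 for Ptf1a. In bulk libraries, fewer cells of a type and less RNA per cell cannot be told apart.

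Hamp, the hepcidin gene that is the main liver form, had few counts: 16, 13 and 12 in controls and 0, 2 and 4 in cKO. Its levels were 2.13, 1.53 and 1.52 CPM in controls and 0, 0.0603 and 0.0667 CPM in cKO, and the groups did not overlap. Its log2 fold change was -5.29 ± 0.84 (SE), between -5.88 and -4.64 when a cKO library was left out, and its share of library totals was 4.67-fold lower. Hamp passed the filter on low counts only through the control group, where it is high, so no p is given for it. The pooled counts, 41 against 6, gave a ratio of 43.6 per effective size with a 95% exact interval of 18.4 to 126, which covers counting error only and not the spread between libraries. The level in all 3 cKO libraries was near the CPM that 3 counts give there (at most 0.0905).

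Hamp made up 0.521%, 0.378% and 0.440% of all hepcidin counts in controls, and Hamp2 the rest. In cKO, Hamp was 0 of 224 hepcidin counts in replicate 1, which allows a share of up to 1.34% by the 3-count limit (exact upper limit 1.63%), 0.531% in replicate 2 (exact interval 0.0643 to 1.90) and 2.92% in replicate 3 (0.801 to 7.31). The interval of cKO replicate 3 lay above the shares of the 3 controls, while those of cKO replicates 1 and 2 included them. It overlapped the exact interval of control replicate 1 (upper limit 0.844%) and lay above those of control replicates 2 and 3 (0.646% and 0.768%). The share in cKO replicate 3 rests on 4 Hamp counts. The pooled share was 0.444% (41 of 9236) in controls and 0.813% (6 of 738) in cKO. The sources used here do not say how reads matching both genes were counted, and whether some Hamp counts came from Hamp2 transcripts was not tested. The hepatocyte markers Apob, Fgb and Serpina1a were at 0 in all 6 libraries, Alb had 3 to 51 counts, and Ttr, which made up most of the sum of the 7 hepatocyte markers, had 193 to 354 counts in controls and 307 to 586 in cKO. Ahsg had 0 counts in each control and 47, 65 and 131 in cKO, and Apoa1 had 0 in each control and 7, 8 and 8 in cKO. The sum was 25.9 to 49.2 CPM in controls and 6.33 to 19.2 CPM in cKO on the TMM scale, and the other way round on library totals, at 8.74 to 15.1 and 24.8 to 47.4 per 1e6 counts.

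**Figure D1:**
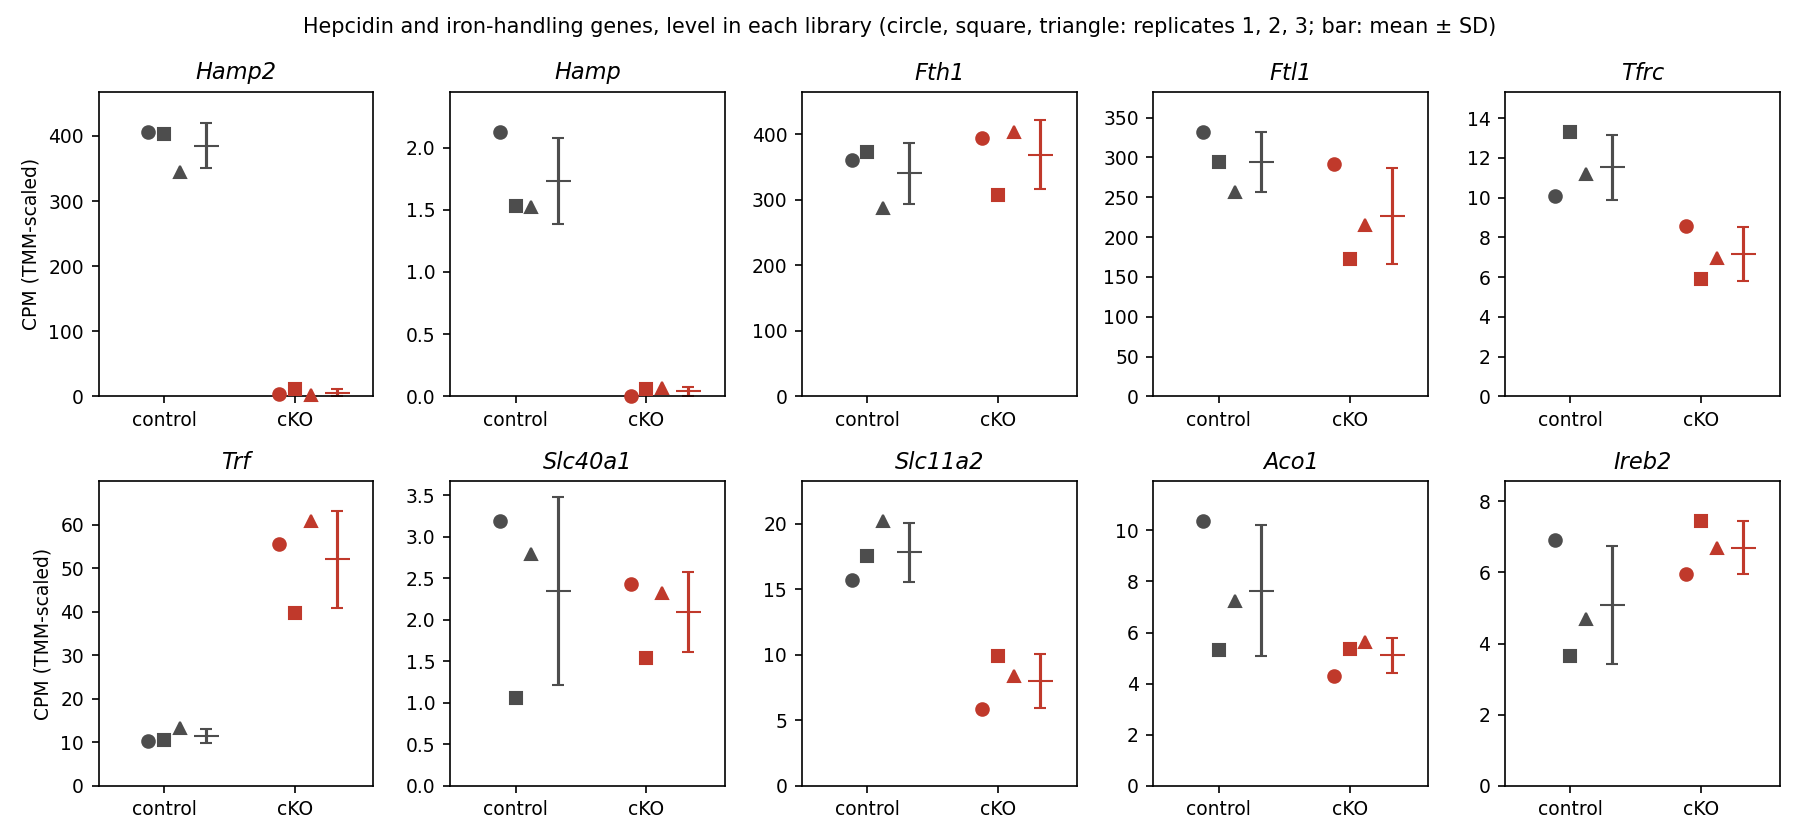
Level of each of the 10 genes in the 3 control and 3 cKO libraries, in CPM of the TMM-scaled library size on linear axes from 0; each symbol is 1 library (circle, square and triangle for replicates 1, 2 and 3) and each bar a group mean ± SD. Hamp2, Hamp, Tfrc and Slc11a2 lie lower in cKO and Trf higher with no overlap on this scale, while on library totals Tfrc and Slc11a2 are higher in cKO.

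The plot of levels by library shows that the groups did not overlap for 5 of the 10 members (Hamp2, Hamp, Tfrc, Trf and Slc11a2), where 56.2% of all tested genes did not overlap. Of the 9 members other than Hamp2, the edgeR test called 1 higher (Trf) and 3 lower (Hamp, Tfrc and Slc11a2) at an adjusted p under 0.05, and 5 had no call; the call of Hamp supports nothing, given its filter. Among all tested genes, 24.0% were called higher and 20.7% lower. Hamp2 and Hamp were the 2 members lower on library totals as well, and 1.06% of tested genes were called lower and also had a lower mean share of the totals. As the set was picked for Hamp2 in this same contrast, nothing is read from these shares. The median log2 fold change of the 10 members was -0.48, against 0.10 for all tested genes.

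**Figure D2:**
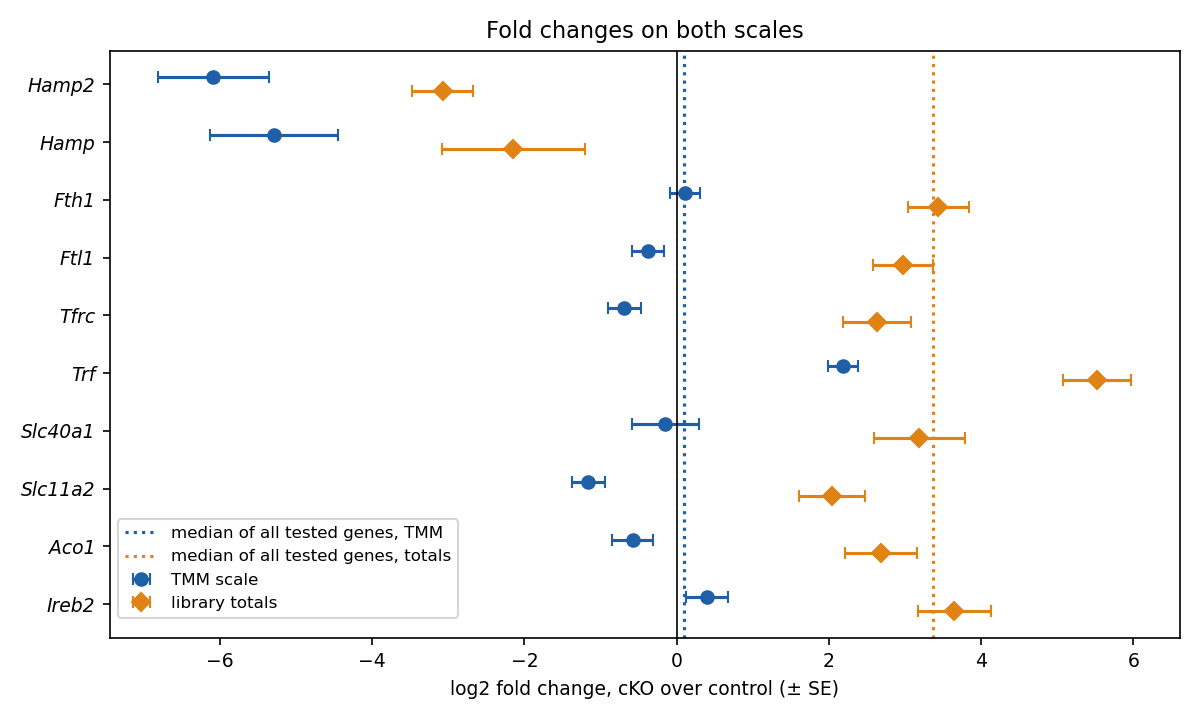
Log2 fold change of each gene, cKO over control, on TMM scaling and on library totals, with SE bars. Hamp2 (-6.08 and -3.07) and Hamp (-5.29 and -2.14) are below 0 on both scales, and the other 8 genes are above 0 on library totals.

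The comparison of the 2 scales shows Hamp2 and Hamp apart from the other members. On library totals their log2 fold changes were -3.07 and -2.14, while those of the other 8 members ran from 2.04 (Slc11a2) to 5.52 (Trf). The median of all tested genes on that scale was 3.37.

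By Pearson's r of log2 CPM over the 6 libraries, the 5 named genes most like Hamp2 were Rplp1 (0.9996), a ribosomal stalk protein, Pla2g1b (0.9989), the pancreatic phospholipase, Bckdk (0.9988), the kinase of the branched-chain keto acid dehydrogenase, Reg3b (0.9986), a secreted lectin, and Vwa8 (0.9984), a mitochondrial ATPase. The r does not give the size of the change: log2 fold changes ran from -5.15 for Reg3b to -1.25 for Vwa8. With the groups this far apart, a high r does not show a shared order of the libraries within a group. Reg3b was at 5546, 6363 and 6839 CPM in control replicates 1, 2 and 3, where Hamp2 was at 406, 403 and 345. An r over 0.95 with Hamp2 was found for 1351 genes (10.3% of those tested). Among the members, r with Hamp2 was 0.97 for Hamp, 0.93 for Slc11a2, 0.80 for Tfrc and -0.996 for Trf.

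Ferritin, a shell of heavy (Fth1) and light (Ftl1) chains, stores iron, and its mRNAs carry an iron-responsive element in the 5′ UTR. Stem-loops were searched in annotated transcripts in the form C, 5 bases, CAGTG, then A, C or T, and 5 bases that pair without a gap with the first 5. In any part of a transcript, 1.02% of 21877 protein-coding genes held a match. Fth1, Ftl1 and Slc40a1 each held 1 in the 5′ UTR, and the 3′ UTR of Tfrc held 4, of which the first is shown. Capitals mark the loop letters. No match to this form was found in the other 6 members, Slc11a2 among them, which does not show that they lack an element of another form.
Fth1: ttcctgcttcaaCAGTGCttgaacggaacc
Ftl1: gtcttgcttcaaCAGTGTttgaacggaaca
Slc40a1: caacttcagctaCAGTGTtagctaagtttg
Tfrc: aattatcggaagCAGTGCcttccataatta

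Fth1 (chr19:9980598-9985098) was at 361, 373 and 287 CPM in controls and 394, 308 and 404 CPM in cKO. These ranges overlap, and the log2 fold change came to 0.11 ± 0.20 (SE; edgeR, adjusted p = 0.666). Ftl1 (chr7:45457944-45459884) was at 332, 294 and 257 CPM in controls and 292, 172 and 215 CPM in cKO. Its log2 fold change was -0.38 ± 0.21 (adjusted p = 0.155), and without cKO replicate 1, its highest cKO library, it was -0.60 with an adjusted p of 0.0227. On library totals Fth1 was 10.8-fold and Ftl1 7.83-fold higher in cKO. Ferritin genes have many processed copies in the genome, so the split of reads between these genes and their copies is uncertain.

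Within a library the balance of the ferritin chains needs no scaling between libraries. The log2 ratio of Fth1 to Ftl1 counts was 0.12, 0.34 and 0.16 in controls and 0.43, 0.84 and 0.91 in cKO. The means, 0.21 ± 0.12 and 0.73 ± 0.26 (SD, n = 3 each), differed by 0.52, a ratio 1.43-fold higher in cKO. All 3 cKO values lay above all 3 control values, and the exact 2-sided permutation test gave p = 0.1, the smallest that 3 libraries against 3 allow.

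Tfrc (chr16:32608920-32632794), which takes up iron-loaded transferrin, was at 10.1, 13.3 and 11.2 CPM in controls and 8.59, 5.88 and 6.97 CPM in cKO. It fell by 0.69 on the log2 scale (SE 0.22, edgeR adjusted p = 0.0192), although its share of library totals was 6.19-fold higher in cKO. The call was lost without control replicate 2 (adjusted p = 0.0880), cKO replicate 2 (0.0536) or cKO replicate 3 (0.0737). Against ferritin heavy chain, the log2 ratio of Tfrc to Fth1 counts was -5.15, -4.80 and -4.67 in controls and -5.52, -5.71 and -5.85 in cKO. Iron regulatory proteins block the translation of ferritin, so this ratio of mRNA counts is not a readout of their activity. The means of that ratio, -4.88 ± 0.24 and -5.69 ± 0.17 (SD, n = 3 each), differed by -0.82, a 1.76-fold lower ratio in cKO with no overlap (exact 2-sided permutation p = 0.1, the smallest possible).

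**Figure D3:**
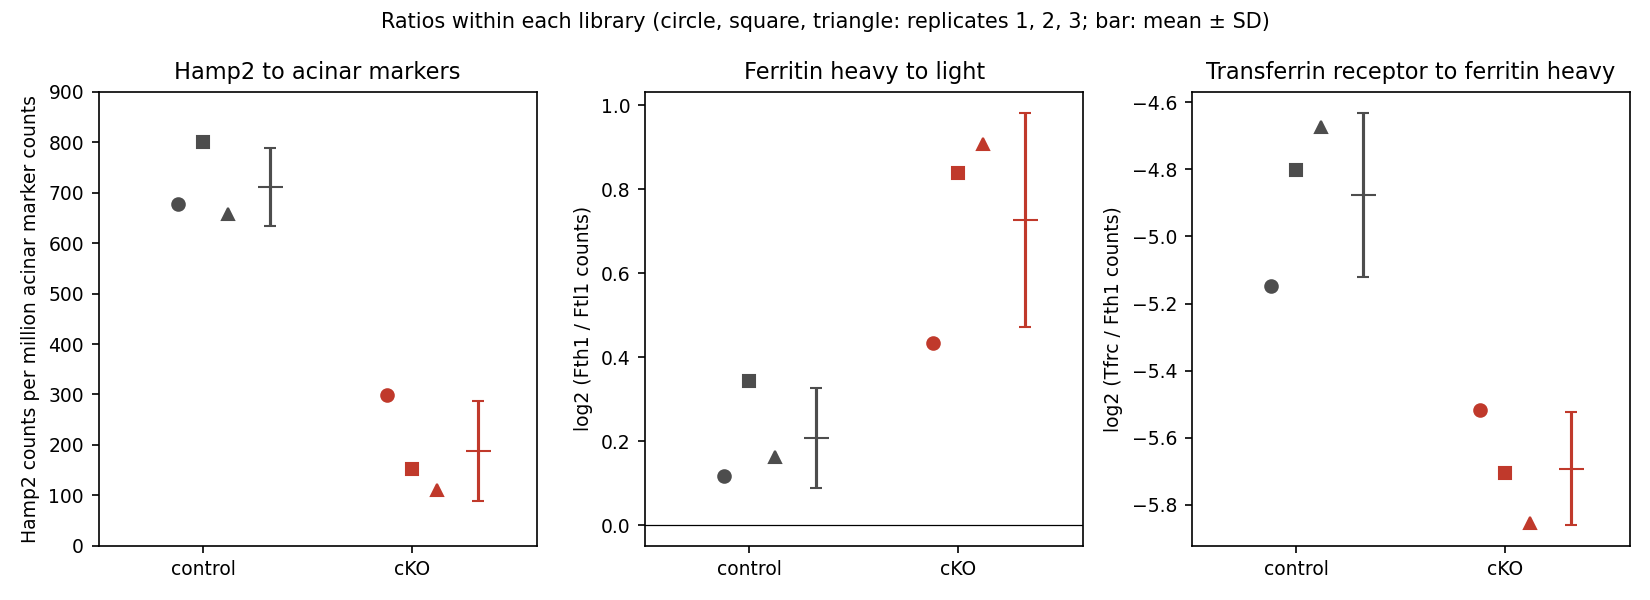
Ratios of counts within each of the 3 control and 3 cKO libraries: Hamp2 per 1e6 acinar marker counts (linear axis), and the log2 ratios of Fth1 to Ftl1 and of Tfrc to Fth1; each symbol is 1 library (circle, square and triangle for replicates 1, 2 and 3) and each bar a group mean ± SD. Hamp2 per acinar marker count is lower in every cKO library (111 to 299 against 657 to 801), the Fth1 to Ftl1 ratio higher (0.43 to 0.91 against 0.12 to 0.34) and the Tfrc to Fth1 ratio lower (-5.85 to -5.52 against -5.15 to -4.67).

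The plot of within-library ratios does not depend on TMM or on library totals. The Fth1 to Ftl1 and Tfrc to Fth1 ratios separated the groups without overlap, and neither can pass a threshold of 0.05 with this number of libraries. No share of ratios without overlap was computed for other gene pairs, and 56.2% of single tested genes did not overlap in CPM. Hamp2 per acinar marker count also separated the groups, but the set was picked for the fall of Hamp2, so this supports nothing.

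Slc11a2 (chr15:100387898-100425072), the proton-coupled importer of ferrous iron at the plasma membrane and in endosomes, was at 15.7, 17.6 and 20.2 CPM in controls and 5.81, 9.86 and 8.34 CPM in cKO. The groups did not overlap. Slc11a2 fell by 1.16 on the log2 scale (SE 0.22, edgeR adjusted p = 0.000567), a 2.23-fold lower mean, while its share of library totals was 4.11-fold higher in cKO. Its 3′ tags do not tell apart the Slc11a2 isoforms with and without an iron-responsive element where these share an end, and isoforms were not analysed here.

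Trf (chr9:103204001-103230444), the iron carrier of plasma, was at 10.4, 10.5 and 13.3 CPM in controls and 55.5, 39.6 and 60.8 CPM in cKO. The means were 11.4 ± 1.68 and 52.0 ± 11.1 CPM (SD, n = 3 each). Trf rose by 2.19 on the log2 scale (SE 0.20, edgeR adjusted p = 1.2e-06), a 4.56-fold higher mean, with cKO replicate 2 the lowest of its group. Its share of library totals was 45.9-fold higher in cKO.

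Markers of other cells moved with Trf. All 8 macrophage and monocyte markers were called higher in cKO, with a sum of 95.5 to 124 CPM in controls and 380 to 768 CPM in cKO, and 5 of 6 fibroblast and stellate markers were called higher, with a sum of 713 to 807 against 3503 to 5024 CPM. Their part in the rise of Trf, or in the levels of the other members, was not tested. Erythroid markers summed to 732 to 926 CPM in controls and 710 to 1217 CPM in cKO, with 2 of 5 tested called higher. Endothelial markers (2 of 5 lower), duct markers (2 higher and 2 lower of 4) and islet markers (0 of 5 called) moved less uniformly on the TMM scale. On library totals all 5 of each of these 3 lists took a higher share in cKO.

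Slc40a1 (chr1:45908068-45926523), the exporter that hepcidin targets, was at 3.19, 1.06 and 2.79 CPM in controls and 2.43, 1.54 and 2.32 CPM in cKO. The cKO values all fell inside the control range, and the log2 fold change came to -0.15 ± 0.44 (SE; edgeR, adjusted p = 0.810). With 9 to 24 counts per control library, its SE is the largest of the members after Hamp and Hamp2. A moderate change could go uncalled at this depth, and power was not computed.

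The iron regulatory proteins bind iron-responsive elements when iron is low. Aco1, which holds an iron-sulfur cluster and serves as cytosolic aconitase when iron is plentiful, lies at chr4:40143081-40198338 and was at 10.4, 5.30 and 7.24 CPM in controls and 4.31, 5.37 and 5.62 CPM in cKO. The edgeR test gave Aco1 a log2 fold change of -0.58 ± 0.27 (SE, adjusted p = 0.0972), and of the TMM fits that leave out 1 library, it passed the test in the 1 without control replicate 2 (-0.78, adjusted p = 0.0389). Ireb2, which is degraded when iron is plentiful, lies at chr9:54863789-54912530 and was at 6.91, 3.65 and 4.70 CPM in controls and 5.96, 7.45 and 6.69 CPM in cKO. Its log2 fold change was 0.40 ± 0.27 (adjusted p = 0.250). Control replicate 1 was the highest control library for both genes, and the ranges of the groups overlapped for both.

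Around the members, 96 other genes of iron handling were listed in 7 groups by function. Of these, 89 passed the filter on low counts: 26 were called higher in cKO, 19 lower and 44 had no call, with a median log2 fold change of 0.15. Over all tested genes 24.0% were called higher and 20.7% lower with a median of 0.10, so the list as a whole lies near the background. The counts of the function groups below, of 6 to 24 tested genes each, are read against the same shares and as a description. Bmp6, Hjv, Hephl1 and Ftmt were at 0 counts in all 6 libraries. On library totals all 92 listed genes with counts took a higher share in cKO, so each gene called lower below is lower on the TMM scale and higher as a share of totals. Of the 45 calls, 32 were kept under every other setting apart from library totals.

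Genes of systemic hepcidin control (13 tested: 4 higher, 2 lower, median 0.38) included higher levels of Bmp2, a ligand that drives hepcidin in liver, from 1.23 ± 0.443 to 10.4 ± 1.82 CPM (SD, n = 3 each; log2 fold change 3.08, edgeR adjusted p = 3.27e-06). Hfe, the hemochromatosis protein, rose by 2.88 (adjusted p = 0.000138), and Neo1, a co-receptor partner of hemojuvelin, by 0.68 (0.0217). Furin, the protease that cleaves prohepcidin, fell from 40.7 to 22.4 CPM (log2 fold change -0.86, adjusted p = 0.000233). Smad6, an inhibitor of BMP signalling, fell by 1.08 (adjusted p = 0.0238). The Neo1 call was lost without control replicate 1, control replicate 2 or cKO replicate 3 (adjusted p = 0.0655, 0.0842 and 0.154), and the Smad6 call without control replicate 3, cKO replicate 1 or cKO replicate 3 (0.0818, 0.0721 and 0.108).

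Of the 11 tested genes of inflammatory hepcidin control, 8 were called higher and 2 lower, with a median of 1.19, or 0.79 with Creb3l3, at 0 in all controls, set to its lower bound. Il6, the cytokine that induces hepcidin through STAT3, rose from 3.25 to 21.8 CPM (log2 fold change 2.74, edgeR adjusted p = 2.19e-06). Il1b, another inflammatory cytokine, rose from 16.2 to 73.4 CPM (adjusted p = 1.01e-05), and Socs3, a STAT3 target that feeds back on the pathway, from 41.9 to 135 CPM (adjusted p = 9.49e-06). Nr0b2, the corepressor SHP, fell from 3.05 to 0.477 CPM (log2 fold change -2.73, adjusted p = 0.00154), and Cebpa, a transcription factor that acts on the hepcidin promoter, from 9.37 to 5.42 CPM (-0.79, 0.0107). The 8 macrophage and monocyte markers were also called higher in cKO, and their part in the rise of Il6, Il1b and Socs3 was not tested. The members Hamp2 and Hamp were lower in the same libraries, and any link of their levels to Il6, Socs3 or the STAT letters was not tested.

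Membrane iron transport and reductase genes (15 tested: 6 higher, 2 lower, median 0.34) included Heph, a ferroxidase that works with ferroportin and the gene of the group called higher with the smallest p, at 0.888 CPM in controls and 5.57 CPM in cKO (log2 fold change 2.66, edgeR adjusted p = 4.06e-05). The STEAP reductases Steap3 and Steap1 rose by 2.18 and 3.18 (adjusted p = 0.000197 and 0.000973). Slc39a8, a zinc and iron importer, fell by 1.06 (adjusted p = 0.00751), and Slc25a28, a mitochondrial iron carrier, by 0.56 (0.0333, a call lost in 4 of the 6 fits that leave out 1 library). Among the 6 tested genes of iron chaperones, ferritin turnover and control of the iron regulatory proteins, 0 were called higher and 2 lower (median -0.15). Those were the chaperones that deliver iron to ferritin: Pcbp1 fell from 95.1 to 51.9 CPM (-0.88, adjusted p = 0.000252), and Pcbp2 from 96.8 to 65.4 CPM (-0.57, 0.0077), a call lost without control replicate 1 (0.0512).

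**Figure D4:**
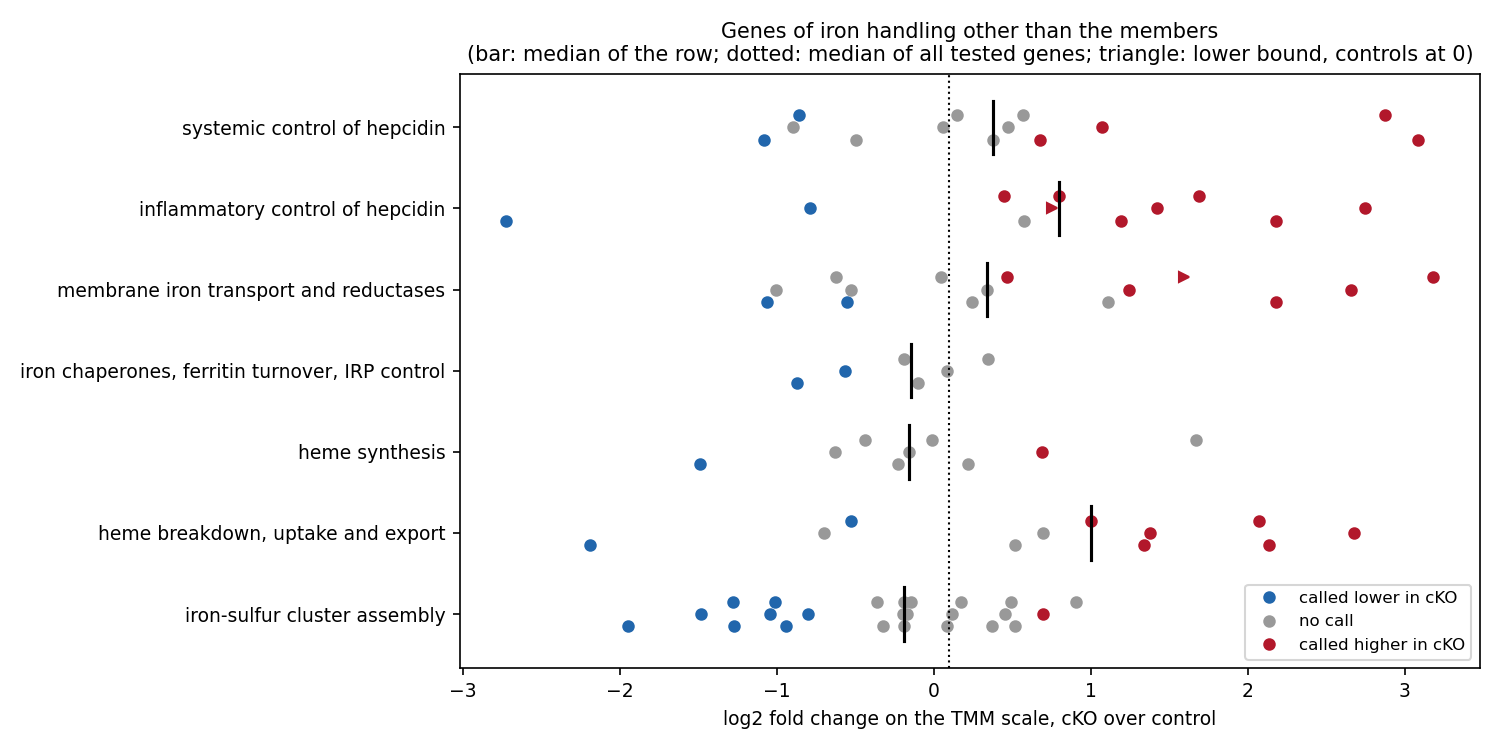
Log2 fold change, cKO over control on the TMM scale, of the 89 tested genes of iron handling other than the 10 members, in rows by function; each point is 1 gene, colour gives the edgeR call, bars are row medians, the dotted line is the median of all tested genes, and the triangles are genes at 0 in every control drawn at their lower bound. Inflammatory and heme breakdown genes lie mostly above 0 and the called iron-sulfur assembly genes mostly below; on library totals every called lower gene is higher in cKO.

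The plot of fold changes by function shows the heme genes in 2 rows. Heme breakdown, uptake and export (11 tested: 6 higher, 2 lower, median 1.00) held Lrp1, the receptor for heme-hemopexin, which rose from 12.5 to 54.8 CPM (log2 fold change 2.13, edgeR adjusted p = 3.31e-06). Cd163, the macrophage receptor for haptoglobin-bound hemoglobin, rose from 1.64 to 10.5 CPM (2.68, adjusted p = 3.32e-05), and Blvrb, a biliverdin reductase, from 7.32 to 18.5 CPM (1.34, 0.000227). Flvcr2 and the heme transporter Slc48a1 fell by 2.19 and 0.53 (adjusted p = 0.0109 and 0.0177); both calls were lost without control replicate 1 (0.0578 and 0.0851), the first also without cKO replicate 3 (0.0701) and the second without control replicate 2 (0.0658). In heme synthesis (9 tested: 1 higher, 1 lower, median -0.16), Cpox, a mitochondrial enzyme of the pathway, fell from 29.8 to 10.6 CPM (-1.49, adjusted p = 0.000111). Alas1, which makes the first committed step, rose by 0.69 (adjusted p = 0.0236), a call lost in 4 of the 6 fits that leave out 1 library.

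Iron-sulfur cluster assembly genes were the longest of the 7 lists (24 tested: 1 higher, 8 lower on the TMM scale, median -0.19). Nfs1, the cysteine desulfurase that supplies sulfur, fell from 7.73 to 2.01 CPM (log2 fold change -1.95, edgeR adjusted p = 0.000269). Iscu, the scaffold on which clusters are built, fell from 19.5 to 8.05 CPM (-1.28, 0.00027), and Isca1, a late assembly factor, from 17.8 to 6.36 CPM (-1.48, 6.43e-05). Mms19, part of the cytosolic targeting complex, rose by 0.70 (adjusted p = 0.0339), a call lost in 4 of the 6 fits that leave out 1 library.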

How the data were processed

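The deposited files hold whole-number read counts per gene for 6 QuantSeq libraries, 1 file each, with the gene symbol as identifier. Per the submitters' processing notes, Bowtie2, edgeR, mm10 and GRCm38 were used, with no role or version; the sources used here give no counting tool, strand setting or handling of multi-mapping reads. Groups were taken from the labels. All genes were tested with the quasi-likelihood test of edgeR 4.0.16 (R 4.3.3, TMM scaling, genes kept by filterByExpr at a minimum count of 10 and minimum total of 15), with Benjamini-Hochberg adjustment over the whole table and a threshold of 0.05; the script was tested on simulated data. CPM are counts per 1e6 of the TMM-scaled library size. The most similar genes used log2 CPM with a prior count of 2, and ratios added 0.5 to each count.

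The members and gene lists were chosen with earlier results of these data known. Named genes are the 10 members, up to 3 genes called in each direction per function list by smallest p, and the 5 genes most correlated with Hamp2. Between libraries of a group, counts differed by more than sampling noise (chi-square per degree of freedom 14.6 to 370). Sequences came from RefSeq and GENCODE M21 on GRCm38. Alternatives were other size factors, library totals, DESeq2 1.42.0, no filter, a replicate block, leaving out each library and, chosen after seeing the data, Hamp2 and Hamp per acinar marker count.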

Additional observations from a re-analysis of the deposited data

How the results depend on the processing

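On library totals, 8 of the 9 members other than Hamp2 were called higher and 1 lower (1 and 3 on TMM), and 87 of the listed iron genes were called higher and 0 lower (26 and 19 on TMM). The fold changes that turned there were Ftl1 2.97, Tfrc 2.63, Slc40a1 3.19, Slc11a2 2.04 and Aco1 2.68 on the log2 scale. On library totals the median over all genes was 3.37, with 12654 genes called higher and 53 lower. Which scale lies nearer the change per cell was not tested. Hamp2 was -3.07 on library totals and -1.93 per acinar marker count. DESeq2 called 1 member higher and 3 lower, with 27 and 20 of the iron list, and the fit with no filter called 28 and 19. With the replicate block, the calls were 1 and 3 for the members and 25 and 19 for the iron list, and Hamp2 was -6.39; deviations of same-numbered libraries correlated at 0.0142, -0.0295 and -0.00774, so the numbers were not treated as pairs. The block changed no call of a member. Leaving out each library in turn gave 1 to 1 member higher and 2 to 4 lower, 20 to 28 list genes higher and 14 to 19 lower, -6.99 to -5.68 for Hamp2, 2.07 to 2.36 for Trf, -1.32 to -0.97 for Slc11a2, 0.43 to 0.67 for the Fth1 to Ftl1 ratio and -0.95 to -0.72 for the Tfrc to Fth1 ratio. Slc40a1, with no call, ran from -0.50 (without control replicate 2) to 0.14 and turned sign: it was 0.14 without control replicate 1, 0.0081 without control replicate 3 and 0.041 without cKO replicate 2; the cause was not tested. Hamp was not tested where a control library was left out, since it then failed the filter on low counts.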

Other observations

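Some iron genes outside the rule for named genes were picked out after their values were seen. Ltf, lactoferrin, an iron-binding protein of neutrophil granules and secretions, had 0 counts in each control and 106, 25 and 52 in cKO, a mean at least 3.01-fold higher against a floor of 3 counts per library. Creb3l3, a liver and gut transcription factor that acts on hepcidin, had 0 counts in each control and 30, 12 and 62 in cKO, a mean at least 1.68-fold higher by the same floor. Its cKO replicate 2, at 0.362 CPM, did not clear that floor, which was 0.353 to 0.399 CPM in the controls. Lcn2, which binds bacterial siderophores and with them iron, had 14, 20 and 140 counts in controls and 329, 166 and 223 in cKO, with control replicate 3 far above the other controls and no call (edgeR log2 fold change -0.62, adjusted p = 0.600).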
